A study of Homo sapiens with 24 samples.

Results

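The 3 untreated libraries labelled Hth83 were compared with the 3 untreated libraries of Cal27 and the 3 of Fadu, 9 of the 24 libraries of a study of 4 human cancer cell lines. They were taken by their labels alone, and each squamous line had equal weight in the comparison. The question was what the libraries labelled Hth83 express before any treatment, and how far they share the genes of thyroid follicular cells or of squamous epithelium. Hth83 is, by its name, a line from an anaplastic thyroid carcinoma, whereas Cal27 derives from a squamous carcinoma of the tongue and Fadu from one of the hypopharynx. The labels give all of them the same cell type, a head and neck cancer cell, call the genotype WT and name no thyroid or squamous origin. The identity of the libraries labelled Hth83 was not checked by genotype here, and no thyroid sample was compared. In their RNA PAX8 was high, the other thyroid genes were mostly at or near 0, and TP63 and several squamous keratins were abundant. These levels do not settle their identity. Hth83 therefore stands below for the libraries that carry that label. All 9 libraries were controls, at 0 s of a cold plasma exposure called Piezo-CAP, harvested at 24 h from wells seeded the night before. Hth83 and Cal27 were grown in DMEM and Fadu in MEM, each with serum. Each line is 1 line, the labels do not say whether its 3 libraries came from separate cultures, and the p-values below therefore measure the spread between these libraries. Line and any batch in which a line was handled cannot be told apart. In comparisons with Fadu the medium cannot be told apart from them either, whereas Hth83 and Cal27 shared DMEM.

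RNA was counted per gene, and levels are given as CPM, the count of a gene scaled to its library's total. The total was 37.9, 36.4 and 29.8 M counts in the Hth83 libraries, 27.9 to 30.1 M in Cal27 and 30.7 to 37.5 M in Fadu. Protein-coding genes held 97.53% to 97.58% of the counts in the 9 libraries. The 37 mitochondrial genes were at 0 in every library, so the mitochondrial share, a sign of RNA quality, could not be read. The top gene was FN1 in each Hth83 library, with 2.125%, 2.181% and 2.191% of all counts, and EEF1A1 in every library of the squamous lines. In bulk RNA, fewer cells that express a gene and less RNA of it per cell cannot be told apart.

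Thyroid follicular cells are kept in their identity by a set of transcription factors that act together, PAX8, NKX2-1, FOXE1 and HHEX. These drive thyroglobulin (TG), the iodide pump SLC5A5 and the TSH receptor. Squamous epithelium instead rests on TP63, a relative of p53, with basal keratins, desmosomes that join cells to one another and hemidesmosomes that hold them to the basement membrane. Outer layers of it build a cornified envelope. Epithelia of both kinds use E-cadherin (CDH1), claudins and the splicing factors ESRP1 and ESRP2, while mesenchymal cells use vimentin (VIM), fibronectin (FN1) and repressors of epithelial genes such as ZEB1.

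Promoters of 4 genes are shown because the 2 gene groups they belong to were lower in the Hth83 libraries than in both squamous lines. They are examples that hold a motif and are not taken as typical of their groups. They run from 250 bases before to 50 after the start of the gene, in the direction of the gene, and were taken from RefSeq on GRCh38.p14. For CLDN7 a later promoter entry than the first was taken. In IFIT1 (chr10:89392373-89392672, plus strand) and BST2 (chr19:17405581-17405880, minus strand), both interferon-stimulated, capitals mark GAAA, any 2 bases and GAAA again, on either strand, the core of the element that interferon-activated factors bind. In CRB3 (chr19:6464021-6464320, plus strand), a polarity gene, and CLDN7 (chr17:7262429-7262728, minus strand), a claudin, capitals mark CAGGTG on either strand, the E-box that ZEB1 and the SNAI proteins are known to bind.
IFIT1: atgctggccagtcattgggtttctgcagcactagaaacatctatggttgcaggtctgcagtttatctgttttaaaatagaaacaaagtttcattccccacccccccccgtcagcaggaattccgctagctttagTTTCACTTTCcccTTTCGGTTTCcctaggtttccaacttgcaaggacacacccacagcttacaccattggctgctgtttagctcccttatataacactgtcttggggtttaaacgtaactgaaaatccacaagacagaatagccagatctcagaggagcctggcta
BST2: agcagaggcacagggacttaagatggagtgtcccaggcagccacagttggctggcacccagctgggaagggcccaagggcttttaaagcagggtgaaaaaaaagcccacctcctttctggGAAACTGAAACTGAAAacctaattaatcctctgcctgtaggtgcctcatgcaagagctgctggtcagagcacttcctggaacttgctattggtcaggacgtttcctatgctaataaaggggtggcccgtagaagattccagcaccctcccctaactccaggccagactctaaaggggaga
CRB3: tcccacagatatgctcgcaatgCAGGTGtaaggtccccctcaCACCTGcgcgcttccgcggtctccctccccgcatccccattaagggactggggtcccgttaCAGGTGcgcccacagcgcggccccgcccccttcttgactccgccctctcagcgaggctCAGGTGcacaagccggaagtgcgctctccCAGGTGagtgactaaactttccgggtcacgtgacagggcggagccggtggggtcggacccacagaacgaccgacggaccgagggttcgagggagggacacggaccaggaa
CLDN7: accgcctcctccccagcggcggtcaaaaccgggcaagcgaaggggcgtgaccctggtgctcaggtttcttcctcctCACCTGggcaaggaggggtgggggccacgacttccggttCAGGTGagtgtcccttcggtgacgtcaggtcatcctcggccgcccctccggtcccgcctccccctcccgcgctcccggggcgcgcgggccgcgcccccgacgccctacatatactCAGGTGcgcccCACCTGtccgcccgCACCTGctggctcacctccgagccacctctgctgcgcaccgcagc
IFIT1 and BST2 held 2 matches each, those of BST2 overlapping, and CRB3 and CLDN7 held 5 each. The first motif stood in 3.57% of all 35116 promoters of the table and the second in 20.6%. Of the 25 interferon-stimulated genes 18 had an entry, and 13 of them held the first motif, against 4.38% of all 27305 genes with an entry. Of the 20 epithelial junction genes 12 had an entry, and 8 of them held the E-box, against 24.1% of all genes. A match is a run of letters, and binding was not measured.

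Over all genes the Hth83 libraries lay about as far from each squamous line as the squamous lines lay from each other. In edgeR's quasi-likelihood test, fitted over 19826 genes in the 9 libraries with Benjamini-Hochberg adjustment, 15017 genes (75.7%) had an adjusted p under 0.05 between Hth83 and the mean of Cal27 and Fadu. With a 2-fold minimum as well, 8450 genes (42.6%) differed between Hth83 and Cal27, 8428 (42.5%) between Hth83 and Fadu and 8620 (43.5%) between Cal27 and Fadu. Since lines differ so widely, a gene is called here as beyond both lines only where it passed in all 3 contrasts of Hth83 and stood at least 2-fold from each squamous line, on the same side. There were 4482 such genes (22.6%), of which 1978 (9.98%) were higher in Hth83 and 2504 (12.6%) lower. Counts for each gene group below are to be read beside those shares. A gene near 0 in Hth83 passes the filter on low counts only through the squamous lines and then had to be lower. Counts of lower genes in groups near 0 in Hth83 are therefore descriptions. So are the p-values of single genes near 0 there, among them CDH1, IL1RN and FGFR2. The same holds for genes near 0 in both squamous lines, such as VIM, which then had to be higher. By rank the squamous lines were closer to each other, as a description: the median Spearman correlation between libraries over 21975 genes was 0.854 for Hth83 with Cal27 and 0.848 for Hth83 with Fadu, against 0.884 for Cal27 with Fadu. Untreated A375, the melanoma line of the study, correlated at 0.8 with Hth83, against 0.775 with Cal27 and 0.781 with Fadu. Libraries of 1 line correlated at 0.989 to 0.994.

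**Figure D1:**
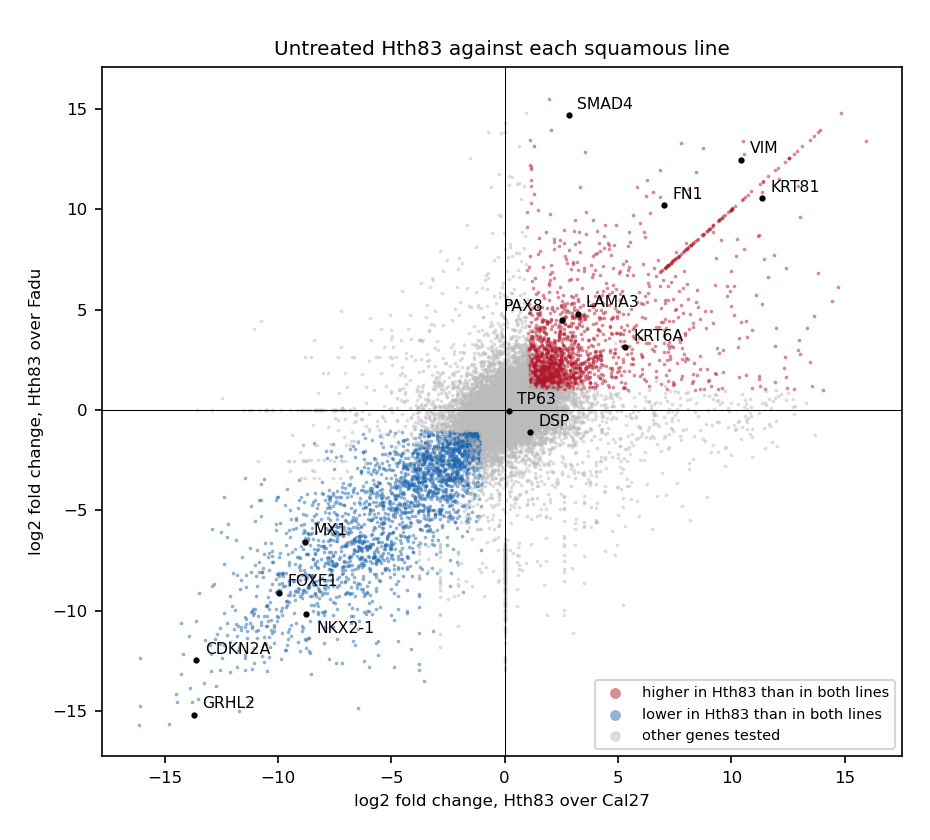
Each point is 1 gene of the fit, with its log2 fold change of Hth83 over Cal27 on the x axis and of Hth83 over Fadu on the y axis. Red genes are higher and blue genes lower in Hth83 than in both lines by at least 2-fold, grey genes are the others. Genes at 0 counts in a line have fitted values that depend on the prior count, among them the red points on a straight diagonal, at 0 in both squamous lines. Genes of chromosome Y are not drawn. TP63 and DSP lie near the centre, whereas VIM, FN1 and KRT81 lie far to the upper right and GRHL2 and CDKN2A far to the lower left.

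Of the thyroid transcription factors, PAX8 was higher in Hth83 than in both squamous lines, and NKX2-1 and FOXE1 were lower than in both. PAX8 (ENSG00000125618.18, chromosome 2, 113215997 to 113278950, minus strand, GENCODE 29 on GRCh38) had 126, 127 and 125 CPM in the Hth83 libraries, against 19.5, 23.6 and 21.5 CPM in Cal27 and 6.53, 5.58 and 6.35 CPM in Fadu. All Hth83 libraries lay above all squamous ones, by 3.51 ± 0.05 on the log2 scale against the mean of both lines (SE, edgeR adjusted p = 4.50e-39). PAX8-AS1, which overlaps PAX8 on the opposite strand, moved the other way, with 18.4, 20.6 and 20.8 CPM in Hth83, against 84, 82.8 and 82.2 CPM in Cal27 and 67.2, 72.2 and 72.9 CPM in Fadu. The sources used here do not say whether counting used the strand, so reads of this overlapping pair may be split between them. NKX2-1, the partner of PAX8 at the thyroglobulin promoter, had 0 CPM in all 3 Hth83 libraries, against 1.15, 1.5 and 2.09 CPM in Cal27 and 5.4, 3.71 and 5.14 CPM in Fadu. With 3 counts as the floor over the 3 libraries, its level was at least 54.8-fold lower than in Cal27 and at least 165-fold lower than in Fadu. FOXE1, the forkhead factor needed for thyroid migration, had 0, 0.0274 and 0 CPM in Hth83, 1 count in all, against 12.2, 13.2 and 12.7 CPM in Cal27 and 7.66, 8.3 and 8.4 CPM in Fadu. HHEX, a homeobox factor of foregut and thyroid, lay between the squamous lines with 4.94, 3.57 and 3.59 CPM in Hth83, against 1.08, 0.904 and 0.863 CPM in Cal27 and 11.6, 9.47 and 9.89 CPM in Fadu.

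Genes of hormone synthesis and of the follicle were near 0 in the Hth83 libraries, and mostly in the squamous lines too. Of 17 such genes 15 averaged under 1 CPM in Hth83, 14 in Cal27 and 13 in Fadu. Only 7 passed the filter on low counts, and since such genes could pass it through the squamous lines alone, nothing is read from the 6 of them that were lower beyond both lines. TG, the hormone's precursor protein, had 0.0528, 0 and 0.0671 CPM in Hth83, against 0.0717, 0.209 and 0.232 CPM in Cal27 and 0.712, 0.96 and 1.11 CPM in Fadu. The receptor TSHR was at 0 CPM in all 3 Hth83 libraries, as it was in Cal27, against 0.0593, 0.0534 and 0.26 CPM in Fadu, and the pump SLC5A5 had 2 counts over the Hth83 libraries, 0 in Cal27 and 4 in Fadu. None of TG, TSHR and SLC5A5 lay above all squamous libraries. DUOX1, the oxidase that makes peroxide for iodination and is also used by other epithelia, had 2.22, 1.7 and 1.74 CPM in Hth83, against 12.8, 12.3 and 14.3 CPM in Cal27 and 28.4, 23.8 and 24.7 CPM in Fadu. DIO2, which activates thyroid hormone, had 0, 0.0549 and 0 CPM in Hth83, against 2.83, 2.47 and 2.46 CPM in Cal27 and 3.98, 3.87 and 4.85 CPM in Fadu.

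**Figure D2:**
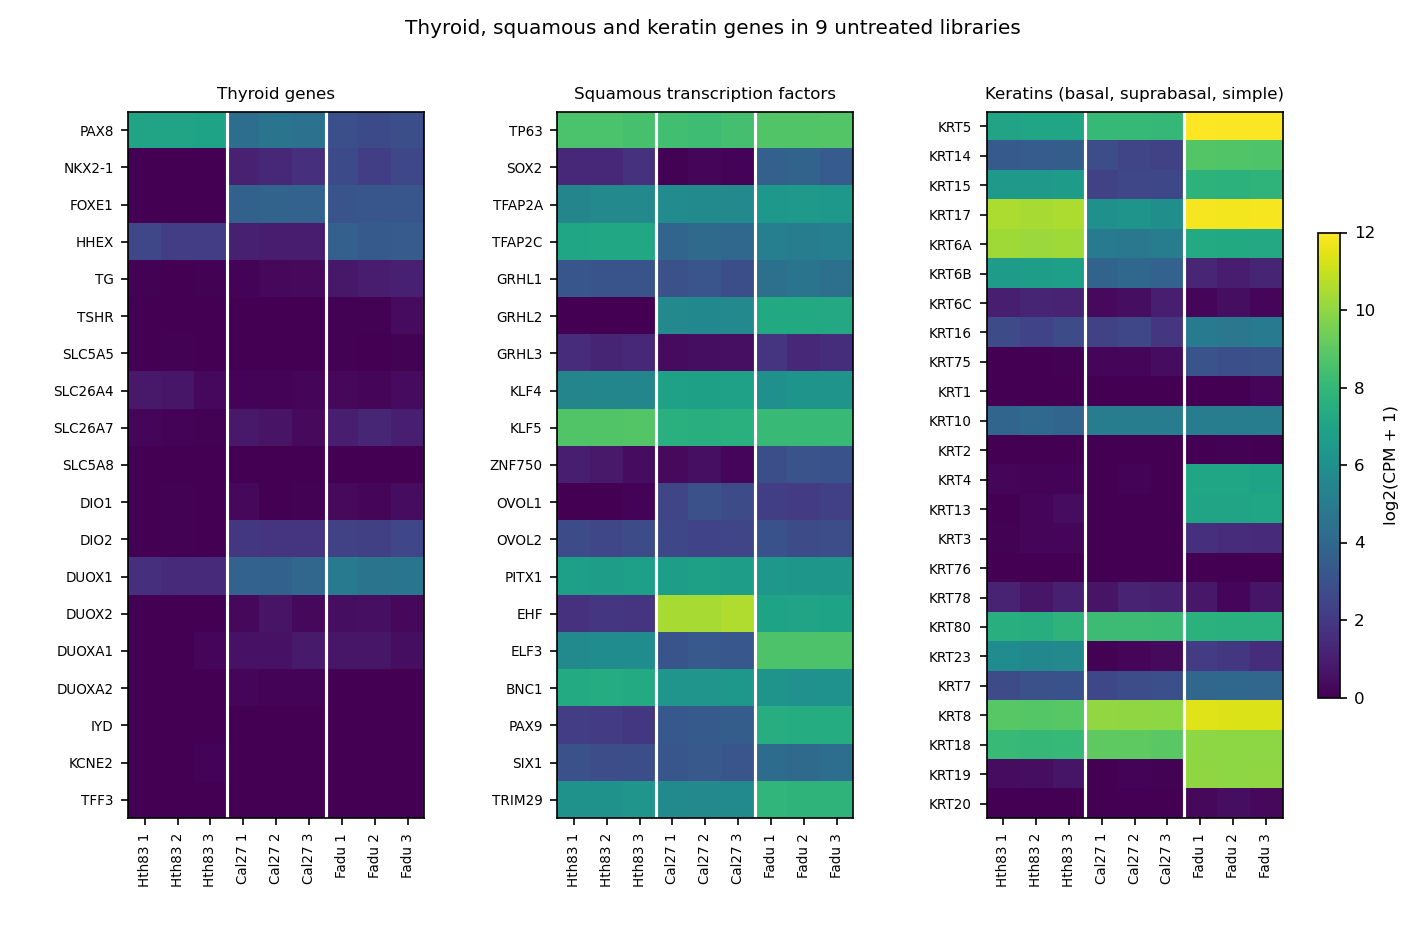
Colour gives log2(CPM + 1) per gene (rows) and library (columns, Hth83, then Cal27, then Fadu, split by white lines). PAX8 is brightest in Hth83, at 125 to 127 CPM, TP63 has a like colour in all 9 libraries, and the keratins split into those brightest in Hth83 (KRT6A, KRT6B, KRT23) and those brightest in Fadu (KRT5, KRT14, KRT19).

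The squamous transcription factors were mostly present in the Hth83 libraries, with a few absent. TP63 (ENSG00000073282.14, chromosome 3), the master factor of squamous epithelium, had 389.9, 391 and 368 CPM in Hth83, against 329, 312 and 354 CPM in Cal27 and 426, 431 and 446 CPM in Fadu, so Hth83 lay between the squamous lines. The log2 difference from their mean was 0.07 ± 0.03 (edgeR adjusted p = 0.0491), and it missed the threshold in 14 of 20 alternative fits, whose adjusted p spanned 0.00342 to 0.7. A375 had 0.0135 CPM of TP63. Of the 20 factors, all tested, 2 were higher beyond both lines, against 9.98% of all genes tested, and 4 lower, against 12.6%, and their median log2 difference was -0.47, against -0.005 over all genes tested. TFAP2C, an AP-2 factor of ectoderm, had 133, 140.3 and 139.8 CPM in Hth83, against 13.9, 16.7 and 15.6 CPM in Cal27 and 35, 33.5 and 35 CPM in Fadu. BNC1, basonuclin, a zinc finger protein of basal keratinocytes, had 162, 172 and 159 CPM in Hth83, against 75.5, 76.4 and 83.1 CPM in Cal27 and 72.7, 66 and 68.3 CPM in Fadu. Both were above all squamous libraries, by 2.63 ± 0.05 (edgeR adjusted p = 6.38e-37) for TFAP2C and 1.22 ± 0.04 (edgeR adjusted p = 1.71e-27) for BNC1 on the log2 scale. KLF5, PITX1 and TRIM29, further factors of stratified epithelium, averaged 433, 105 and 72.3 CPM in Hth83, and none of them was beyond both lines.

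The 4 factors lower beyond both lines were GRHL2, OVOL1, EHF and PAX9. GRHL2, which maintains E-cadherin and claudin genes, had 0 CPM in all 3 Hth83 libraries, against 48.4, 47.3 and 48.6 CPM in Cal27 and 156, 157 and 149 CPM in Fadu. That is at least 1669-fold lower than in Cal27 and at least 5344-fold lower than in Fadu. OVOL1, a repressor of mesenchymal genes, had 0.0264, 0 and 0.101 CPM in Hth83, against 4.7, 6.88 and 5.91 CPM in Cal27 and 3.62, 3.2 and 3.78 CPM in Fadu. EHF, an ETS factor of epithelia, had 2.24, 2.77 and 2.48 CPM in Hth83, against 1397, 1376 and 1496 CPM in Cal27 and 125, 126 and 125 CPM in Fadu, without overlap and with a wide gap between the squamous lines too (log2 difference of Hth83 from their mean -7.35 ± 0.06, edgeR adjusted p = 1.15e-48). PAX9, a factor of oral and pharyngeal epithelium, had 3.46, 3.27 and 2.88 CPM in Hth83, against 8.93, 9.7 and 10.7 CPM in Cal27 and 176, 172 and 174 CPM in Fadu. OVOL2, the close relative of OVOL1, was present at 5.78, 4.97 and 5.74 CPM in Hth83, against 5.06, 4.34 and 4.61 CPM in Cal27 and 7.06, 5.63 and 6.18 CPM in Fadu, and did not pass the test.

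Keratins of basal and activated squamous cells were abundant in the Hth83 libraries, in a mix that neither squamous line showed. Summed over 9 genes they held 2898 to 3086 CPM in Hth83, against at most 393 CPM in Cal27 and 8289 to 8578 CPM in Fadu. KRT5, the basal type II keratin, had 126, 134 and 130.3 CPM in Hth83, against 261, 262 and 256 CPM in Cal27 and 4024, 3922 and 3859.6 CPM in Fadu, so it was lower than in both (log2 -1.03 ± 0.03 against Cal27 and -4.78 ± 0.04 against Fadu, SE). Its partner KRT14 had 9.42, 10.2 and 10.6 CPM in Hth83, against 6.24, 4.66 and 4.21 CPM in Cal27 and 439, 432 and 419 CPM in Fadu, near Cal27 and far under Fadu. KRT17, induced in activated keratinocytes, had 1449.9, 1397 and 1494 CPM in Hth83, against 64, 73.6 and 61.6 CPM in Cal27 and 3705, 3539 and 3683 CPM in Fadu, again between the lines. KRT6A, a keratin of activated and wound-edge keratinocytes, had 1231, 1161 and 1237 CPM in Hth83, against 29.4, 27.1 and 31.4 CPM in Cal27 and 159, 156 and 148 CPM in Fadu. It was above every squamous library, by 4.22 ± 0.03 on the log2 scale (edgeR adjusted p = 4.59e-47). Its copy KRT6B had 94.6, 102 and 108 CPM in Hth83, against 13.3, 15.2 and 12.8 CPM in Cal27 and 1.45, 0.934 and 1.4 CPM in Fadu, though reads of KRT6A, KRT6B and KRT6C, which are nearly identical, can be assigned to the wrong copy.

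Further keratins set the lines apart. KRT81, a hair keratin chosen after its values were seen, had 2155, 1755 and 1873 CPM in Hth83, against 0.897, 0.556 and 0.73 CPM in Cal27 and 1.84, 1.31 and 1.01 CPM in Fadu. It shares sequence with KRT86, which had 29.9, 27.3 and 23.5 CPM in Hth83, against 1.15, 0.869 and 2.49 CPM in Cal27 and 1.75, 1.36 and 2.64 CPM in Fadu, so the split between that pair is uncertain while both were higher in Hth83. KRT23, a type I keratin of epithelia, had 55.4, 47.4 and 48.6 CPM in Hth83, against 0.0359, 0.174 and 0.232 CPM in Cal27 and 3.32, 2.8 and 2.02 CPM in Fadu. The keratins of non-cornified mouth and throat epithelium, KRT4 and KRT13, averaged 0.0962 and 0.148 CPM in Hth83, against 0.0232 and 0 CPM in Cal27 and 129 and 129 CPM in Fadu. They marked Fadu alone and so did not divide Hth83 from squamous lines as a kind. KRT8, of simple epithelia and of thyroid, had 475, 454 and 478 CPM in Hth83, against 1046, 1036 and 997 CPM in Cal27 and 2730.1, 2680.3 and 2643 CPM in Fadu. Its partner KRT18 had 279, 254 and 259.6 CPM in Hth83, against 521, 522 and 482 CPM in Cal27 and 1005, 999.7 and 1002 CPM in Fadu. Both were below all squamous libraries (log2 -1.77 ± 0.03 and -1.38 ± 0.03 against the mean, edgeR adjusted p = 6.38e-37 and 8.19e-31).

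Genes that attach squamous cells to the basement membrane were higher in Hth83 in part. Of 10 genes of hemidesmosomes and of the laminin they bind, all tested, 5 were higher beyond both lines and 1 lower, with a median log2 difference of 1.33. LAMA3, the alpha chain of the epidermal laminin, had 1593, 1722 and 1718 CPM in Hth83, against 176, 169 and 185 CPM in Cal27 and 64.8, 64.8 and 70 CPM in Fadu. Its Hth83 libraries lay above all squamous ones (log2 4.01 ± 0.03, edgeR adjusted p = 1.84e-47). LAMB3, the beta chain, differed, with 1441, 1438 and 1527 CPM in Hth83, against 2074, 2136 and 1936 CPM in Cal27 and 334, 338 and 319 CPM in Fadu. The integrin pair of the hemidesmosome, ITGA6 and ITGB4, averaged 1304 ± 24.8 and 2043 ± 70 CPM in Hth83, against 424 ± 20.1 and 720.0 ± 10.5 CPM in Cal27 and 136 ± 2.86 and 511 ± 7.37 CPM in Fadu (SD, n = 3 each). PLEC, plectin, which ties the integrin to keratin filaments, averaged 3436 ± 79.6 CPM in Hth83, 1205 ± 46.2 CPM in Cal27 and 922 ± 25.8 CPM in Fadu. COL17A1, the collagen that spans the hemidesmosome, was the one lower gene, with 146, 151 and 162 CPM in Hth83, against 1470.0, 1509.6 and 1494 CPM in Cal27 and 415, 409 and 404 CPM in Fadu.

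Desmosome genes were mostly not beyond both squamous lines, as was true of most genes. Of 14 desmosome genes 12 were tested. Beyond both lines 1 was higher, against 9.98% of all genes tested, and 1 lower, against 12.6%. Nothing particular to desmosomes is read from these counts. Against the mean of the squamous lines 4 were higher, against 38.0% of all genes tested, and 5 lower, against 37.7%. DSP, desmoplakin, the core linker, had 689.9, 753 and 716 CPM in Hth83, against 311, 304 and 350.5 CPM in Cal27 and 1699, 1657 and 1698 CPM in Fadu, between the lines (log2 0.02 ± 0.03 from their mean, edgeR adjusted p = 0.561). PKP1, a plakophilin of stratified epithelium, had 270.3, 266 and 269 CPM in Hth83, against 1.51, 2.05 and 1.93 CPM in Cal27 and 144, 138 and 143 CPM in Fadu. DSG3, the desmoglein of basal squamous cells and the target of pemphigus antibodies, had 4.8, 5.98 and 6.68 CPM in Hth83, against 77.2, 80 and 79.7 CPM in Cal27 and 166, 169 and 175 CPM in Fadu. PKP1 was therefore above and DSG3 below all squamous libraries (log2 4.11 ± 0.05 and -4.27 ± 0.06, edgeR adjusted p = 1.15e-43 and 2.88e-38). DSC3 and DSG2 averaged 118 and 377 CPM in Hth83, against 36.8 and 139 CPM in Cal27 and 333 and 549 CPM in Fadu.

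Cell junction and polarity genes of epithelia were lower in Hth83 as a group, with several at or near 0. Of 20 genes, all tested, 13 were lower beyond both lines and 0 higher, and the median log2 difference was -3.83, or -2.31 with limma on log2(TPM + 1), with 12 lower. CDH1 (ENSG00000039068.20, chromosome 16), E-cadherin, had 0.106, 0.22 and 0.268 CPM in Hth83, against 214, 213 and 237 CPM in Cal27 and 358, 361 and 361 CPM in Fadu. With 20 counts over all Hth83 libraries the gap to every squamous library was wide (log2 -10.44 ± 0.09, edgeR adjusted p = 1.11e-46). ESRP1, which directs epithelial splicing, had 0.765, 0.851 and 0.47 CPM in Hth83, against 207, 203 and 198 CPM in Cal27 and 281, 284 and 286 CPM in Fadu. ESRP2, its paralog, averaged 0.331 ± 0.213 CPM in Hth83, 77.6 ± 1.5 CPM in Cal27 and 64.3 ± 2.17 CPM in Fadu. SPINT1, an inhibitor of surface proteases, had 0 CPM in all 3 Hth83 libraries, against 252, 253 and 246 CPM in Cal27 and 114, 116 and 115 CPM in Fadu. ST14, matriptase, the protease that SPINT1 inhibits, had 0, 0 and 0.0671 CPM in Hth83, against 172, 182 and 171 CPM in Cal27 and 215, 209.7 and 209.7 CPM in Fadu. Enzyme and inhibitor were thus at or near 0 together.

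The claudins and polarity genes split. CLDN7, whose promoter is shown above, had 0.0528, 0 and 0.0336 CPM in Hth83, against 39.3, 42.9 and 40.8 CPM in Cal27 and 134, 130.1 and 130.3 CPM in Fadu. CRB3, the other E-box example, had 0.132, 0.0274 and 0.0671 CPM in Hth83, against 30.5, 33 and 31.4 CPM in Cal27 and 14.2, 12.1 and 12.1 CPM in Fadu. CLDN1, the main claudin of stratified epithelium, had 706, 665 and 747 CPM in Hth83, against 549, 527 and 515 CPM in Cal27 and 329 ± 3.01 CPM on average in Fadu (SD, n = 3), so its Hth83 libraries lay above all squamous ones, within 2-fold of Cal27. CDH3, P-cadherin, the cadherin of basal cells, had 234, 233 and 234 CPM in Hth83, against 236, 243 and 248 CPM in Cal27 and 384, 381 and 385 CPM in Fadu. EPCAM was reduced but not absent, at 63.1, 64.4 and 60.4 CPM in Hth83, against 343, 334 and 323 CPM in Cal27 and 155, 162 and 147 CPM in Fadu. OCLN and F11R, both of tight junctions, averaged 28.8 and 121 CPM in Hth83, against 27.2 and 91.4 CPM in Cal27 and 31.1 and 114 CPM in Fadu. P-cadherin and a set of tight junction genes were therefore expressed in Hth83 at levels of the squamous lines while E-cadherin was not.

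Of 30 mesenchymal genes 24 were tested, 6 were higher and 2 lower beyond both lines, and the median log2 difference was 0.95. That median depended on the scale and the filter, at 1.55 with a minimum of 1 CPM in 3 libraries and 0.06 with limma on log2(TPM + 1) without a filter, where 4 were higher and 1 lower beyond both lines. VIM (ENSG00000026025.16, chromosome 10), vimentin, had 739.7, 743 and 723 CPM in Hth83, against 0.646, 0.348 and 0.564 CPM in Cal27 and 0.119, 0.16 and 0.13 CPM in Fadu. FN1, fibronectin, had 21252, 21812 and 21906 CPM in Hth83, against 153, 159.5 and 174 CPM in Cal27 and 20.2, 20.6 and 20.5 CPM in Fadu. Neither gene overlapped between Hth83 and the squamous lines, with log2 differences of 11.46 ± 0.06 for VIM and 8.61 ± 0.03 for FN1 (edgeR adjusted p = 1.29e-54 and 6.83e-58). For scale, untreated A375 averaged 1090.3 CPM of VIM and 149 CPM of FN1. MMP2, a secreted gelatinase, had 83, 80.9 and 89.5 CPM in Hth83, against 0, 0 and 0.0664 CPM in Cal27 and 0.772, 0.987 and 1.04 CPM in Fadu. SPARC, a matrix protein, had 294, 315 and 313 CPM in Hth83, against 134, 134 and 138 CPM in Cal27 and 0.0593, 0.0534 and 0.13 CPM in Fadu, so Cal27 shared it and Fadu did not. ZEB1, the repressor of CDH1, had 10.8, 10.4 and 11.5 CPM in Hth83, against 2.62, 3.27 and 2.89 CPM in Cal27 and 0.326, 0.747 and 0.586 CPM in Fadu.

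Other mesenchymal genes did not follow. SNAI2, another repressor of epithelial genes, averaged 70 ± 6.66 CPM in Hth83, 63.6 ± 2.06 CPM in Cal27 and 42.3 ± 0.828 CPM in Fadu (SD, n = 3 each). COL1A1, the fibroblast collagen, had 1.32, 1.81 and 1.48 CPM in Hth83, against 17.8, 17.1 and 16.7 CPM in Cal27 and 19.7, 19.5 and 20.1 CPM in Fadu. PDGFRB, a receptor of fibroblasts and pericytes, was at 0 CPM in all 3 Hth83 libraries, against 3.94, 3.72 and 3.92 CPM in Cal27 and 0.0593, 0.16 and 0 CPM in Fadu. These 2 were the genes of the list that were lower beyond both lines. AXL and HMGA2, often high in cells with mesenchymal traits, averaged 164 and 284 CPM in Hth83, against 712 and 368 CPM in Cal27 and 82.8 and 19.8 CPM in Fadu, so Cal27 had the most of both.

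**Figure D3:**
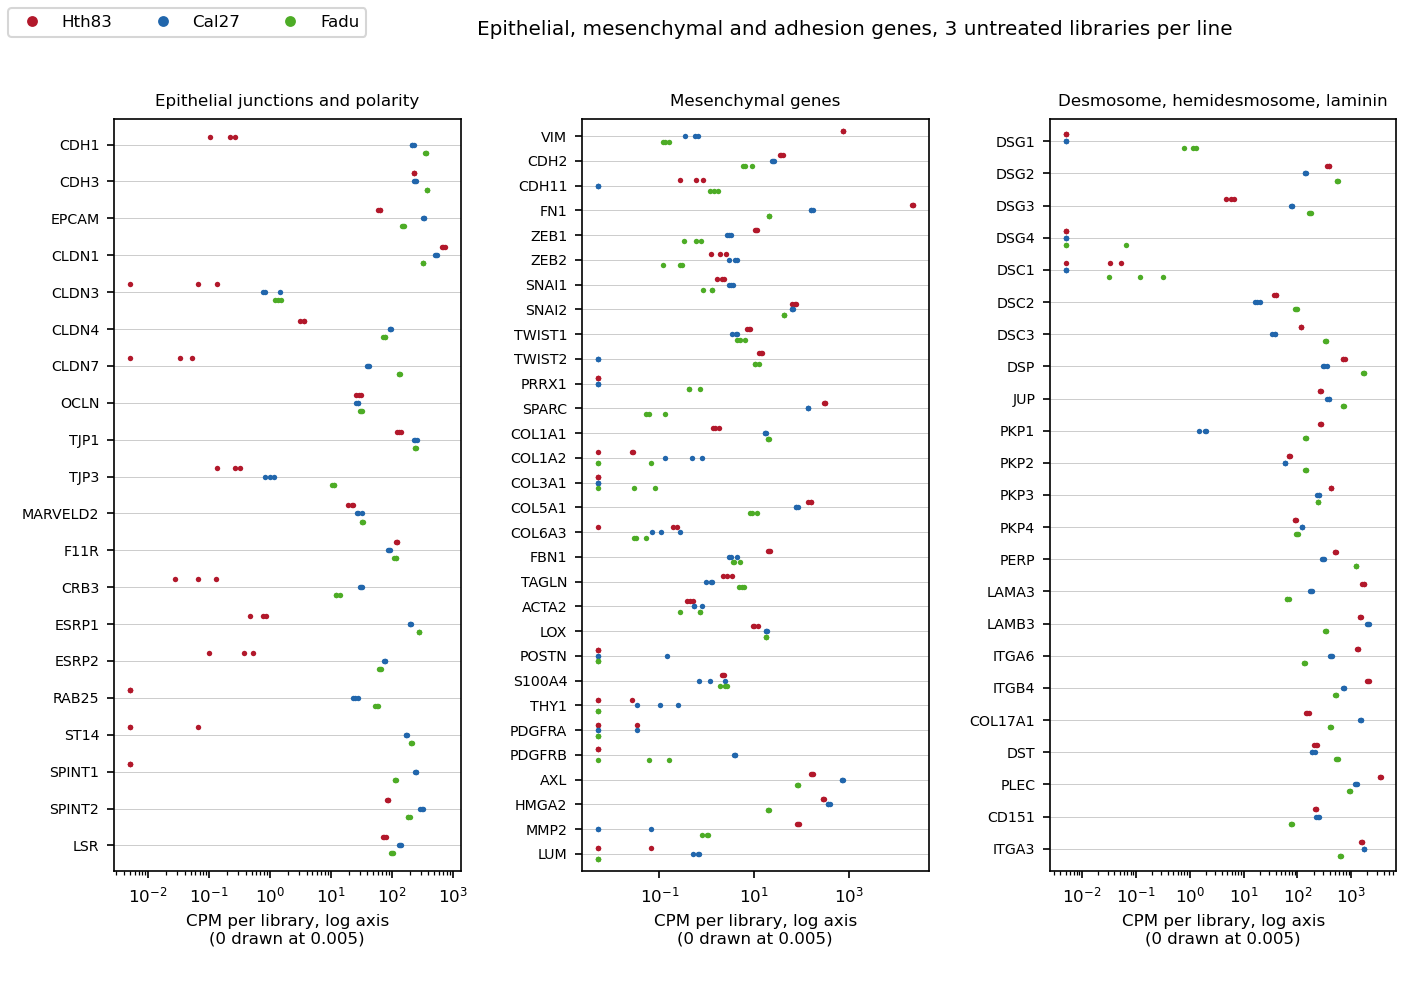
Each point is the CPM of 1 gene in 1 untreated library on a log axis, with 0 drawn at 0.005, and red is Hth83, blue Cal27 and green Fadu. In Hth83 the epithelial genes CDH1, CLDN7, CRB3, ESRP1, ESRP2, RAB25, ST14 and SPINT1 lie far to the left of both other lines, VIM, FN1 and MMP2 lie to the right, and CDH3, CLDN1, OCLN and F11R lie beside them.

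Genes of the late, cornified part of the squamous programme had a lower summed level in Hth83, at 92.1 to 103 CPM, against 449 to 452 CPM in Cal27 and 1190.5 to 1238 CPM in Fadu. Of 42 genes 25 were tested, 1 was higher and 12 lower beyond both lines, and 33 averaged under 1 CPM in Hth83, against 27 in Cal27 and 22 in Fadu. PPL, periplakin, had 14.6, 11.6 and 14.6 CPM in Hth83, against 131, 130.1 and 133 CPM in Cal27 and 657, 631 and 654 CPM in Fadu. EVPL, envoplakin, its partner in the envelope, had 1.69, 0.905 and 1.11 CPM in Hth83, against 60.8, 61.7 and 61.2 CPM in Cal27 and 166, 155 and 170.0 CPM in Fadu. Both were below all squamous libraries (log2 -4.37 ± 0.05 and -6.27 ± 0.09, edgeR adjusted p = 4.14e-40 and 4.06e-39). KLK5, a protease of shedding skin, had 0.0264, 0 and 0 CPM in Hth83, 1 count in all, against 11.3, 12.8 and 12.1 CPM in Cal27 and 84.1, 82 and 79.5 CPM in Fadu. IVL, involucrin, the classic marker, had 0.0528, 0 and 0.0336 CPM in Hth83, against 0.0717, 0.243 and 0.133 CPM in Cal27 and 0.564, 0.827 and 0.716 CPM in Fadu, so it was near the floor everywhere. The single higher gene was S100A8, a calcium-binding protein of activated keratinocytes, with 2.35, 2.61 and 2.58 CPM in Hth83, against 0.359, 0.313 and 0.133 CPM in Cal27 and 1.22, 1.23 and 1.5 CPM in Fadu.

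Interferon-stimulated genes were lower in Hth83 almost without exception. All 25 were tested, 0 were higher, 25 were lower than the mean of the squamous lines, against 37.7% of all genes tested, and 23 were lower beyond both. Their summed level was 214 to 235 CPM in Hth83, against 6540.3 to 6606 CPM in Cal27 and 3554 to 3627 CPM in Fadu, and the median log2 difference was -6.89. ISG15, a ubiquitin-like modifier, had 6.47, 4.99 and 5.47 CPM in Hth83, against 692, 674 and 619 CPM in Cal27 and 237, 228 and 229 CPM in Fadu. MX1, an antiviral GTPase, had 1.16, 1.34 and 1.58 CPM in Hth83, against 581, 573 and 592 CPM in Cal27 and 137, 138 and 145 CPM in Fadu. The groups were far apart in both genes (log2 -6.05 ± 0.06 and -7.67 ± 0.06, edgeR adjusted p = 1.44e-41 and 1.40e-47). IFIT1, which binds viral RNA and whose promoter is shown above, had 1.03, 1.67 and 1.84 CPM in Hth83, against 249.7, 248 and 233 CPM in Cal27 and 142, 138 and 138 CPM in Fadu. BST2, tetherin, which holds budding virus at the membrane, had 0.0528, 0.11 and 0.235 CPM in Hth83, against 416, 387 and 401 CPM in Cal27 and 52.3, 49.8 and 48.3 CPM in Fadu. IFI44L was at 0 CPM in all 3 Hth83 libraries, against 97.4, 104 and 106 CPM in Cal27 and 198, 215 and 216 CPM in Fadu, at least 3554-fold and at least 7281-fold lower.

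A few genes of the list had narrower gaps. OAS3, an RNA sensor of the OAS family, had 73.7, 78.3 and 68.3 CPM in Hth83, against 556, 561 and 613 CPM in Cal27 and 610.1, 588 and 606 CPM in Fadu. The 2 genes not beyond both lines were IRF9, a subunit of the interferon-activated complex, and IFIH1, an RNA sensor. IRF9 had 1.48, 2.91 and 1.58 CPM in Hth83, against 3.44, 2.61 and 4.38 CPM in Cal27 and 13.1, 13 and 12 CPM in Fadu, so 1 Hth83 library lay within the range of Cal27. IFIH1 had 22.9, 22.2 and 22.3 CPM in Hth83, against 136, 132 and 139.9 CPM in Cal27 and 39.9, 39.4 and 38.5 CPM in Fadu. A375 resembled Hth83 in the sum of the list, at 387 to 397 CPM.

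MHC class II genes, which present antigen and respond to interferon gamma, were mostly at or near 0 in Hth83 and low in Fadu too. Of the 10 genes 8 averaged under 1 CPM in Hth83, 3 in Cal27 and 7 in Fadu. Their summed level was 3.8 to 4.69 CPM in Hth83, 184.4 to 197.4 CPM in Cal27 and 6.54 to 7.39 CPM in Fadu. The group therefore marked Cal27 more than it divided Hth83 from squamous lines. Of 10 genes 9 were tested, 0 were higher and 4 lower beyond both lines, and 2 lower on the log2(TPM + 1) scale in limma. CD74, the invariant chain, had 0.0528, 0 and 0 CPM in Hth83, against 173, 176 and 165 CPM in Cal27 and 1.48, 1.07 and 2.12 CPM in Fadu. HLA-DRA, HLA-DRB1 and HLA-DMB were the other 3 lower genes, and averaged 0, 0 and 0.125 CPM in Hth83, against 4.43, 3.69 and 0.772 CPM in Cal27 and 0.645, 0.0751 and 0.376 CPM in Fadu.

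HOX genes, which set position along the body axis, were mostly at or near 0 in Hth83. Of 39 genes 34 were tested, 24 were lower beyond both lines and 0 higher. The median log2 difference was -4.21, or -3.83 with genes at 0 in a line set to the floor of 3 counts. With limma on log2(TPM + 1), which shrinks differences of low genes, the median was -1.91 and 18 were lower beyond both lines. In Hth83 31 of the 39 averaged under 1 CPM, against 14 in Cal27 and 7 in Fadu. HOXA3, a gene of the pharyngeal arches and of thyroid development, had 0.106, 0.11 and 0 CPM in Hth83, against 9.47, 12.9 and 11.6 CPM in Cal27 and 19.7, 21.6 and 20.2 CPM in Fadu. HOXA5 was at 0 CPM in all 3 Hth83 libraries, against 4.12, 4.97 and 4.25 CPM in Cal27 and 9.26, 7.68 and 10.8 CPM in Fadu. HOXA10 had 1.27, 0.878 and 1.07 CPM in Hth83, against 9, 9.52 and 9.56 CPM in Cal27 and 12.7, 12.9 and 14.4 CPM in Fadu. A few posterior genes were kept, among them HOXB9 with 48.7, 41.5 and 48.6 CPM in Hth83, against 46.2, 44.6 and 44.5 CPM in Cal27 and 7.89, 9.5 and 10.7 CPM in Fadu. HOXD10 had 13.7, 14.1 and 12.8 CPM in Hth83, against 18.3, 19.2 and 21.6 CPM in Cal27 and 14, 15.4 and 14.1 CPM in Fadu, so Hth83 and Fadu overlapped.

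**Figure D4:**
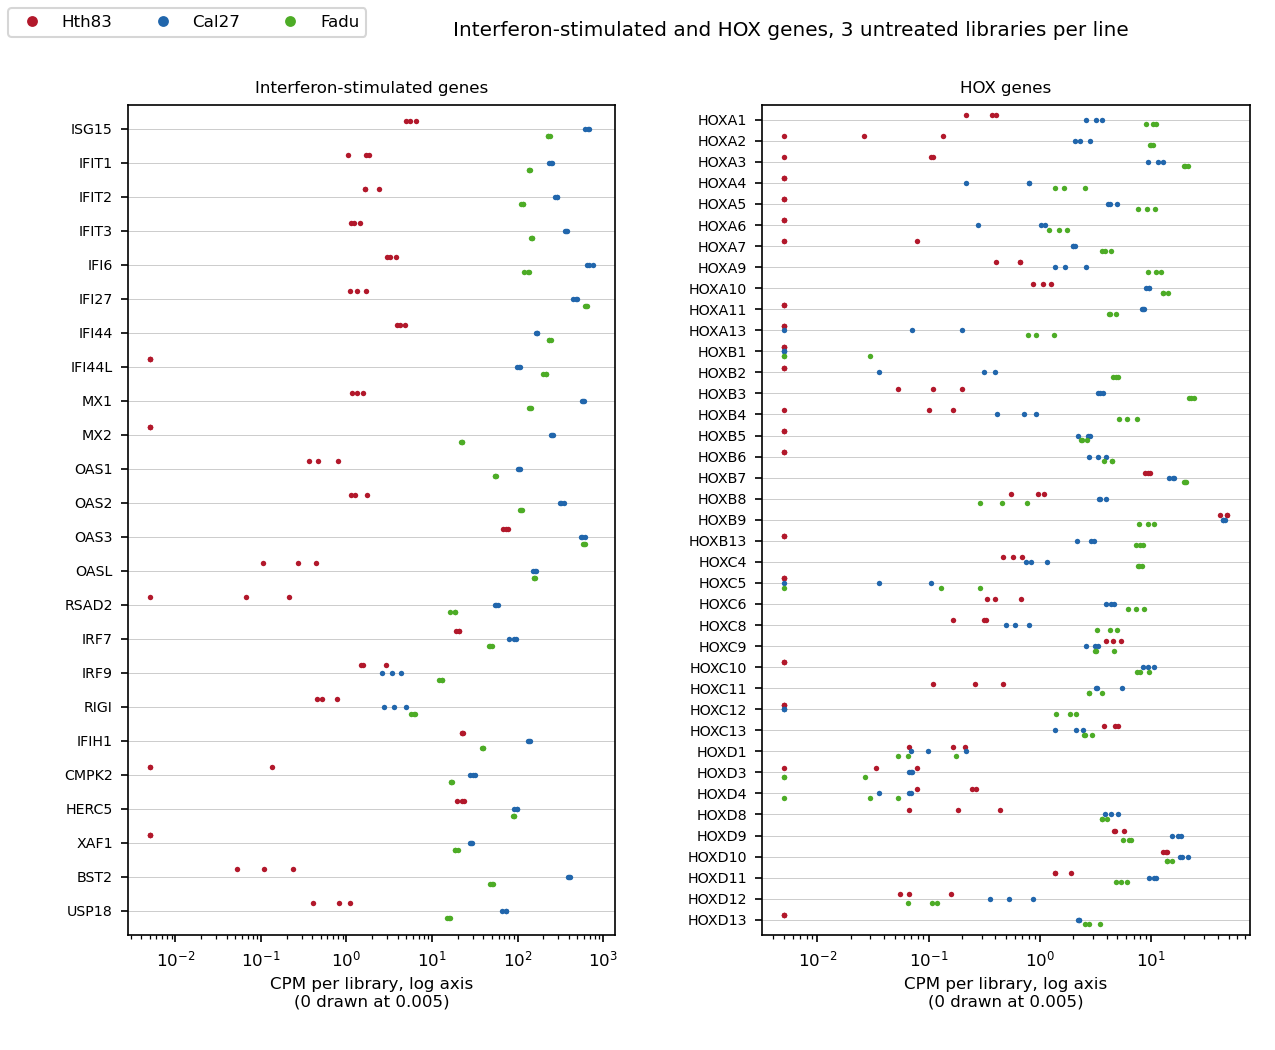
Each point is the CPM of 1 gene in 1 untreated library on a log axis, with 0 drawn at 0.005, and red is Hth83, blue Cal27 and green Fadu. The interferon-stimulated genes drawn (left) lie lower in Hth83 on average, and of the HOX genes (right) HOXB7, HOXB9, HOXC9, HOXC13, HOXD9, HOXD10 and HOXD11 reach over 1 CPM in each Hth83 library.

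Patterning genes of the pharynx, face and foregut moved both ways. Of 36 genes 31 were tested, 10 were higher and 11 lower beyond both lines, or 10 and 6 with limma on log2(TPM + 1). FOXA2, a factor of foregut endoderm, had 24.2, 21.1 and 21 CPM in Hth83, against 4.12, 3.09 and 4.18 CPM in Cal27 and 0.534, 0.454 and 1.04 CPM in Fadu. Its relative FOXA1 went the other way, with 2.88, 3.05 and 3.62 CPM in Hth83, against 10.2, 13 and 9.19 CPM in Cal27 and 103, 94.9 and 95.6 CPM in Fadu. IRX1, a homeobox gene, had 9.82, 9.71 and 10.3 CPM in Hth83 and 0 counts in both squamous lines, at least 288-fold over Cal27 and at least 338-fold over Fadu. IRX2, its neighbour on chromosome 5, was lower in Hth83, with 35.6, 35.7 and 34.2 CPM, against 105, 112 and 97 CPM in Cal27 and 104, 98.3 and 101 CPM in Fadu.

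Markers of other cell types were mostly at or near 0 in Hth83. Of 10 melanocyte genes 8 averaged under 1 CPM in Hth83, all but MITF and PMEL at 3.54 and 1.68 CPM, with SOX10 at 0.0264, 0 and 0.0336 CPM in Hth83, against 1147 CPM on average in A375. Of 16 leukocyte genes 15 averaged under 1 CPM in Hth83 and 8 were at 0, PTPRC among them. LAPTM5, a lysosomal protein of blood cells, was the exception, with 109, 120.3 and 116 CPM in Hth83, against 5.74, 6.88 and 7.07 CPM in Cal27 and 0.089, 0.347 and 0.326 CPM in Fadu. Of 12 fibroblast genes 11, and of 10 endothelial genes 9, averaged under 1 CPM in Hth83, the exceptions being COL1A1 and EGFL7, the second at 48.6 CPM in Hth83, 11.8 CPM in Cal27 and 31.1 CPM in Fadu. Of 18 kidney and Muellerian genes, tissues that also use PAX8, 16 averaged under 1 CPM, whereas LHX1, a factor of the early kidney, had 28.2, 28.4 and 27.6 CPM in Hth83, against 4.59, 4.62 and 5.08 CPM in Cal27 and 0.504, 0.96 and 0.619 CPM in Fadu. WT1, of kidney and mesothelium, averaged 5.18 CPM in Hth83, 0.0924 CPM in Cal27 and 3.65 CPM in Fadu, and PAX2 had 0.0528, 0 and 0.101 CPM in Hth83. Among 16 genes of lung and salivary gland and 12 of gut and liver, 14 and 11 averaged under 1 CPM. The mucin genes MUC5AC and MUC2 were the ones over 10 CPM, with 13.3, 14.7 and 15.7 CPM and 31.6, 33.2 and 37 CPM in Hth83, against 0 and 0.206 CPM on average in Cal27 and 1.78 and 6.31 CPM in Fadu. Cell division genes differed between the lines with Hth83 in the middle in their summed level, at 3172.5 to 3355 CPM in Hth83, against 2416.5 to 2460.4 CPM in Cal27 and 5349 to 5375 CPM in Fadu. Of 20 such genes 10 were higher than the mean of the squamous lines in edgeR, against 38.0% of all genes tested, and 8 lower, against 37.7%. Beyond both lines were 0 in either direction, against 22.6% of all genes tested. MKI67, the proliferation marker, averaged 508 CPM in Hth83, 264 CPM in Cal27 and 838 CPM in Fadu.

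Among growth factor receptors ERBB2, ERBB3 and FGFR2 were lower and FGFR1 higher in Hth83 than in both squamous lines. Of 30 pathway genes, all tested, 7 were higher and 6 lower beyond both lines. The split depended on the scale, with 9 higher and 1 lower of 27 tested with limma on log2(TPM + 1) and 10 higher and 2 lower on log2(TPM + 0.1). EGFR, the receptor that squamous lines often overexpress, had 517, 542 and 521 CPM in Hth83, against 1872, 1857 and 2077 CPM in Cal27 and 938, 938 and 949 CPM in Fadu. ERBB3, its relative, had 0.792, 1.21 and 0.939 CPM in Hth83, against 30, 27.9 and 29.2 CPM in Cal27 and 73.7, 75.5 and 72.9 CPM in Fadu. FGFR1 had 74.1, 75.9 and 72.3 CPM in Hth83, against 7.75, 7.13 and 7.4 CPM in Cal27 and 5.16, 4.24 and 3.55 CPM in Fadu, while FGFR2, the epithelial receptor, had 0, 0.412 and 0.134 CPM in Hth83, against 9.9, 9.52 and 10.3 CPM in Cal27 and 35.1, 32.7 and 32.8 CPM in Fadu. FGFR1 thus lay above and FGFR2 below all squamous libraries (log2 3.76 ± 0.07 and -6.56 ± 0.23, edgeR adjusted p = 2.88e-36 and 9.89e-23). DUSP6 and SPRY4, both induced by ERK activity and both inhibitors of its pathway, were higher, DUSP6 with 210.2, 225 and 224 CPM in Hth83, against 57.1, 62.9 and 56.5 CPM in Cal27 and 14.5, 11 and 12 CPM in Fadu. SPRY4 had 119, 122 and 124 CPM in Hth83, against 32.2, 29.7 and 27.9 CPM in Cal27 and 2.11, 1.49 and 0.944 CPM in Fadu. Among the EGFR ligands, HBEGF averaged 1329 ± 87.5 CPM in Hth83, 464 ± 2.63 CPM in Cal27 and 25.2 ± 2.28 CPM in Fadu (SD, n = 3 each).

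The genes around PAX8 on chromosome 2 include the interleukin-1 cluster. IL1B, the inflammatory cytokine, had 3185, 2932 and 2811 CPM in Hth83, against 523, 521 and 494 CPM in Cal27 and 84.7, 86.4 and 88.5 CPM in Fadu. IL1RN, its natural antagonist, had 0.0528, 0.11 and 0.101 CPM in Hth83, against 2.29, 3.65 and 1.89 CPM in Cal27 and 31.8, 28.4 and 25.4 CPM in Fadu. The cytokine was above and the antagonist below all squamous libraries (log2 3.88 ± 0.03 and -6.53 ± 0.28, edgeR adjusted p = 1.26e-46 and 2.88e-22). Of the 20 genes of the region 18 were tested. Beyond both lines 3 were higher (PAX8, IL1B and the phosphate transporter SLC20A1), against 9.98% of all genes tested. The 3 lower ones were PAX8-AS1, IL1RN and PSD4, against 12.6%. Nothing particular to the region is read from these counts.

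A run of genes on chromosome 9 was at 0 in Hth83 while their neighbours were not. CDKN2A (ENSG00000147889.18, 21967753 to 21995301), which encodes p16, had 0 CPM in all 3 Hth83 libraries, against 45.2, 45.9 and 43.8 CPM in Cal27 and 20.6, 24.6 and 25.1 CPM in Fadu, at least 1561-fold and at least 814-fold lower. CDKN2B (22002903 to 22009363), which encodes p15, was at 0 CPM in all 3 Hth83 libraries, against 21.1, 19.3 and 22.1 CPM in Cal27 and 21.8, 22.5 and 20.8 CPM in Fadu. CDKN2B-AS1 was at 0 CPM in all 3 Hth83 libraries too, against 7.39 CPM on average in Cal27 and 8.65 CPM in Fadu, and so was DMRTA1 (22446841 to 22455740), against 2.62 CPM in Cal27 and 1.57 CPM in Fadu. MTAP (21802543 to 21937651), an enzyme of the methionine salvage pathway next to CDKN2A, had 76.2, 78.9 and 76.3 CPM in Hth83, against 96.9, 85.3 and 80 CPM in Cal27 and 61.5, 60 and 65 CPM in Fadu. ELAVL2, on the other side, averaged 14.3 CPM in Hth83, 6.9 CPM in Cal27 and 18.9 CPM in Fadu. The 4 genes lie side by side in this map. DNA was not measured.

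On chromosome 18 a set of neighbours was higher in Hth83, and some of them were at 0 in Fadu. SMAD4, the shared mediator of TGF-beta signals, had 97.6, 101 and 99.4 CPM in Hth83, against 13.4, 14.1 and 13.1 CPM in Cal27 and 0 CPM in all 3 Fadu libraries, at least 3371-fold higher than in Fadu. MEX3C, next to it, had 171, 173 and 181 CPM in Hth83, against 44.3, 47.8 and 41.4 CPM in Cal27 and 0 CPM in all 3 Fadu libraries. Of 18 genes of that region 14 were tested. All 14 were higher in Hth83 than the mean of both lines, against 38.0% of all genes tested. Beyond both lines 10 were higher, against 9.98%. Of the 14 tested, 3 were at 0 counts in Fadu. ME2, of the same region, was near 0 there too, with 1 count, against 141 CPM on average in Hth83 and 63 CPM in Cal27. Others beyond both lines were expressed in Fadu, among them DYM, a protein of the Golgi. DYM had 105, 104 and 108 CPM in Hth83, against 30.5, 28.8 and 22.3 CPM in Cal27 and 15.6, 17.4 and 14.6 CPM in Fadu. Untreated A375 averaged 60.8 CPM of SMAD4, 103 CPM of MEX3C, 102.3 CPM of ME2 and 58.9 CPM of DYM. Levels above both squamous lines were thus not particular to Hth83 for these genes. For MBD1 and MBD2, of the same region, A375 was not above both, at 55.5 and 46 CPM, against 87.3 and 61.4 CPM in Cal27 and 34.1 and 63.7 CPM in Fadu.

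**Figure D5:**
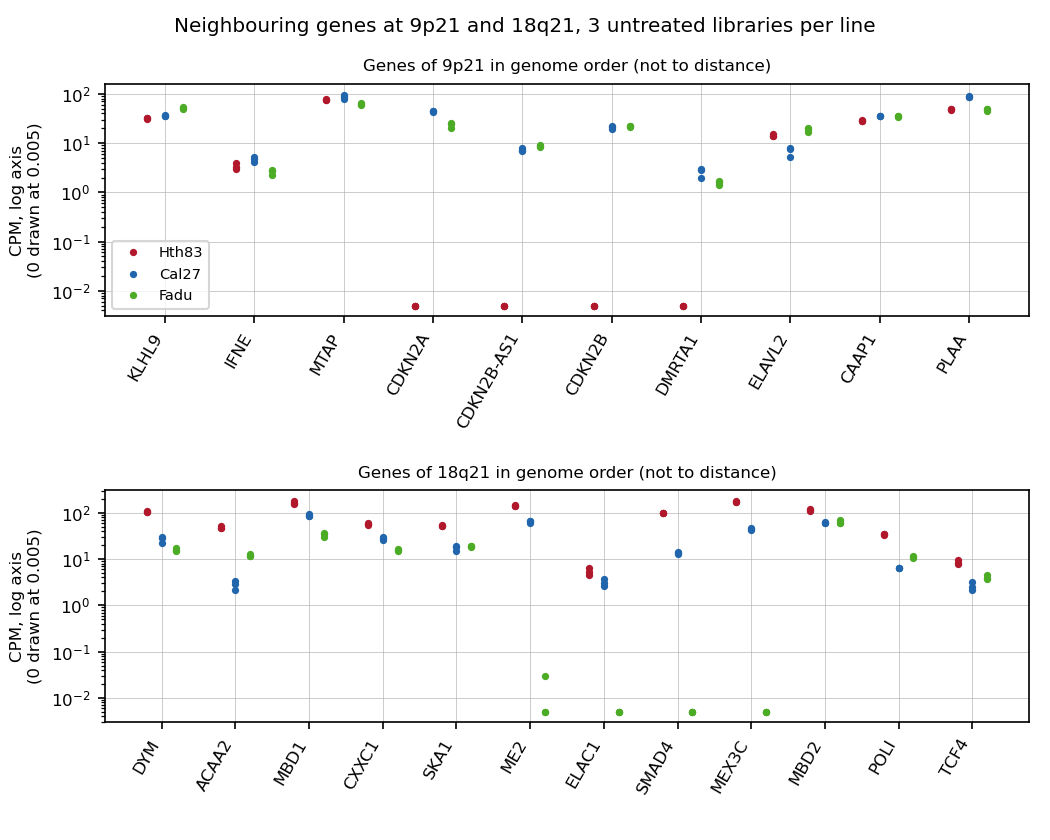
Points are the CPM of single libraries on a log axis, with 0 drawn at 0.005, for genes in genome order (spacing not to scale), and red is Hth83, blue Cal27 and green Fadu. In the upper panel CDKN2A, CDKN2B-AS1, CDKN2B and DMRTA1 are at 0 in Hth83 between MTAP and ELAVL2. In the lower panel ELAC1, SMAD4 and MEX3C are at 0 in Fadu and ME2 is near 0 there.

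Genes with the widest gaps, taken by a rule on the smaller of the 2 single-line folds, were mostly at 0 in Hth83 or at 0 in both squamous lines. Of 950 eligible higher genes 8 of the top 15 are reported, and of 622 eligible lower genes the top 15. PIWIL1, a germline RNA-silencing protein, had 102, 106 and 116 CPM in Hth83 and 0 counts in both squamous lines, at least 3120.3-fold over Cal27 and at least 3664-fold over Fadu. CADM1, an adhesion molecule, had 56.9, 57.7 and 49.7 CPM in Hth83, and SFRP1, a secreted WNT inhibitor, had 232, 260.5 and 207 CPM in Hth83, with 0 counts of each in Cal27. In Fadu CADM1 had 0 counts and SFRP1 had 2. GSPT2, a translation termination factor, had 53.6, 58.1 and 63 CPM in Hth83 and 0 counts in both squamous lines. CR1, a complement receptor, the zinc finger gene ZNF667, the adhesion gene NTM and the homeobox gene ONECUT3 averaged 47.3, 42.1, 33.4 and 28.2 CPM in Hth83, again with 0 counts in both squamous lines. Some of these genes were not particular to Hth83 in the study. Untreated A375 averaged 75.3 CPM of CADM1, 520.5 CPM of SFRP1, 18.7 CPM of GSPT2 and 17.8 CPM of NTM. It had 1 count of PIWIL1 and 0 counts of CR1, ZNF667 and ONECUT3.

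Among the lower genes was MAGEA4, a cancer-testis antigen, at 0 CPM in all 3 Hth83 libraries, against 267, 261 and 265 CPM in Cal27 and 218, 216 and 218 CPM in Fadu, at least 9181-fold and at least 7535-fold lower. Besides GRHL2, SPINT1, ST14, RAB25, IFI44L and CDKN2A, the rule named the epithelial genes AP1M2, PROM2, TMEM30B and CBLC. AP1M2, the epithelial clathrin adaptor, was at 0 CPM in all 3 Hth83 libraries, against 41.8, 43.9 and 43.5 CPM in Cal27 and 91.1, 90.7 and 83.5 CPM in Fadu. The other 3 were at 0 in Hth83 as well, against 35.4, 82.6 and 71.9 CPM on average in Cal27 and 52, 100.5 and 38.1 CPM in Fadu. TFCP2, a transcription factor of most tissues, was at 0 CPM in all 3 Hth83 libraries, against 58.9, 55 and 51.4 CPM in Cal27 and 61.5, 63.8 and 60.9 CPM in Fadu, and A375 averaged 57.3 CPM. GDA, guanine deaminase, HS6ST2, a heparan sulfate sulfotransferase, and DTX3, a ubiquitin ligase, were at 0 counts in Hth83, against 84.8, 51.4 and 22.1 CPM in Cal27 and 74.3, 101 and 32.7 CPM in Fadu.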

How the data were processed

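Libraries were made from wells of each line with a SMARTER mRNA kit, per the labels' protocols. The submitters' processing notes name HISAT2 and the build GRCh38. The sources used here give no HISAT2 version, counter, annotation or strand setting. The authors deposited 1 table of raw counts per gene and 1 table of TPM for each line, with 61533 genes. Of the identifiers, 61415 were named by a symbol table and 105 by GENCODE 29, and 13 kept no name. CPM was computed from the deposited counts and each library's total.

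The counts of the 9 untreated libraries were fitted in R 4.3.3 with edgeR 4.0.16, 1 mean per line (filterByExpr with a minimum count of 10 and a minimum total of 15, TMM, robust quasi-likelihood, Benjamini-Hochberg over all genes tested, threshold 0.05). TMM factors of 0.949 to 1.08 enter the fold changes and not the CPM. The members and gene lists were chosen with earlier results of these data known, and list counts are descriptions. Genes named outside the lists were the 15 higher and 15 lower with the largest smaller single-line fold, of at least 10 CPM and without overlap, and KRT81, KRT86, KRT18 and the single genes of the closing observations were chosen after their values were seen. Some genes of the lists and of that rule are not reported here or drawn, though list counts hold them, and no gene of chromosome Y is. A planned list of genes that resemble PAX8 over libraries was not used, since the libraries fall into clusters by line. For genes at 0 counts, bounds use 3 counts over the libraries of a line, 0.0288 CPM in Hth83, 0.0346 in Cal27 and 0.0294 in Fadu, and cover counting error only. Libraries of a line differed by more than counting noise (chi-square over its degrees of freedom, 2.97 to 5.65), and the common coefficient of variation was 5.1%.

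Alternatives were DESeq2 1.42.0, RLE or library size scaling, other filters, no robust dispersion, limma 3.58.1 on the deposited TPM as log2(TPM + 1) or log2(TPM + 0.1), a replicate block, a fit with A375, a 4-fold minimum and each library left out. Data of 18888 genes were simulated for the contrast of Hth83 with the mean of both lines, with 200 genes changed and both squamous lines alike. There edgeR recovered 79% of 2-fold and 75% of 1.5-fold changes, with 7.23% of calls false. The real lines differed in far more genes, so these shares do not carry over to them. Motifs were searched on both strands of the RefSeq promoters. Other tools were Python 3.11.15, pandas 2.3.3, numpy 2.4.6 and matplotlib 3.10.9.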

Additional observations from a re-analysis of the deposited data

How the results depend on the processing

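The counts of genes that differed between Hth83 and the mean of both lines, and between single lines, stayed within 1.5 times under every alternative run. The count beyond both lines was 4482 and became 2639 with limma on log2(TPM + 1), 2620 on that scale without a filter and 2619 with a 4-fold minimum (839 higher, 1780 lower). The share of higher genes among them was 44.1%, against 58.2% and 58.5% on the log2(TPM + 1) scale with and without a filter and 32.0% with the 4-fold minimum. For Hth83 against Cal27 it was 49.9%, against 64.8% on log2(TPM + 1), and for Cal27 against Fadu 46.0%, against 28.0% there. On log2(TPM + 0.1) the median over all genes moved to 0.104, against -0.005. Without each library in turn, 14571 to 15352 genes differed from the mean and 4476 to 4633 beyond both lines. With the replicate block the counts were 14792 and 4424, and deviations of same-numbered libraries correlated at -0.014 to 0.0278, so the numbers were not taken as pairs.

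Of 158 genes named and tested, 147 kept direction and call against the mean of both lines under every alternative run. Of 117 named genes beyond both lines, 99 kept that call in every alternative that tested them. limma on log2(TPM + 1) ended it for 12 (18 without a filter, among them TG, DIO2, ZEB1 and KRT8) and scaling by library size for 4 (ERBB2, KRT5, PKP1 and S100A8). Leaving out a library ended it for 0 to 4: HLA-DMB, IVL, KRT6C and TG without Hth83 replicate 2, ERBB2, HLA-DMB, IVL and KRT6C without Hth83 replicate 3, ERBB2, IVL, KRT6C and TG without Cal27 replicate 2, KRT6C or TG without Cal27 replicate 1 or 3, HLA-DMB and PDGFRB without Fadu replicate 2 and HLA-DMB without Fadu replicate 3. The replicate block ended it for HLA-DMB and IVL. TP63 lost its call in 14 of 20. DSP reversed to -0.03 with library size only and spanned -0.01 to 0.05 over the fits without a library, and OCLN reversed to -0.01 and spanned -0.02 to 0.11, while MITF spanned -0.13 to 0.04, none past the threshold in the main result. Calls of HHEX, MTAP, ELAVL2, HOXC9, HOXD10 and KRT4 were lost in 1 to 6 alternatives, that of KRT4 without Cal27 replicate 2 and that of HHEX also without Hth83 replicate 1, and KRT13 gained one in 4. The causes were not tested. Levels under about 1 CPM rest on few counts, and 2 squamous lines do not stand for all.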

Other observations

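Secreted and surface proteins of other kinds were among the genes with wide gaps. SPON1, a secreted matrix protein, had 475, 492 and 498 CPM in Hth83, against 2.29, 2.5 and 2.72 CPM in Cal27 and 2.14, 2.51 and 2.12 CPM in Fadu. CXCL5, a chemokine that draws neutrophils, had 256, 227 and 284 CPM in Hth83, against 0.143, 0.0695 and 0.0664 CPM in Cal27 and 0.0593, 0.08 and 0.326 CPM in Fadu. ANPEP, aminopeptidase N, had 227, 227 and 209 CPM in Hth83, against 0.0717, 0.0695 and 0 CPM in Cal27 and 0.0593, 0.0534 and 0.13 CPM in Fadu, and SMOC1, a calcium-binding matrix protein, averaged 148 CPM in Hth83, 0.0913 CPM in Cal27 and 0.0178 CPM in Fadu. In the other direction HSPB1, a small heat shock protein, had 0.158, 0 and 0.168 CPM in Hth83, against 209.7, 197 and 203 CPM in Cal27 and 244, 246 and 239 CPM in Fadu. PTGS2, the inducible cyclooxygenase that IL1B is known to raise, was at 0 CPM in all 3 Hth83 libraries, against 34.5, 32.4 and 37.2 CPM in Cal27 and 13.3, 11.9 and 9.44 CPM in Fadu, while IL1B itself was higher in Hth83. These genes were picked after their values were seen. Untreated A375 averaged 149 CPM of ANPEP, 2.02 CPM of SMOC1, 0.469 CPM of SPON1 and 0 CPM of CXCL5. Of the lower genes it averaged 142.5 CPM of HSPB1 and 5.58 CPM of PTGS2.

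In a comparison made after the values were seen, genes were taken that had at least 5 CPM in Hth83 and at most 3 counts over the libraries of each squamous line. By that rule 31 genes were present in Hth83 alone of the 3 lines, and 97 genes met the reverse. Of the 31 genes 12 (38.7%) lie on chromosome 19, which holds 6.42% of the genes at or above that level in Hth83, and 10 of the 12 are named as zinc finger genes. Over all 263 protein-coding zinc finger genes of that chromosome, 22 had at most 3 counts in Hth83, against 116 in Cal27 and 51 in Fadu, and 7 in A375. Of the 223 tested, 38 were higher beyond both lines, against 9.98% of all genes tested, and 10 lower, against 12.6%. The median level of the family was 5.7 CPM in Hth83, 1.02 CPM in Cal27 and 6.07 CPM in Fadu, so at the median Hth83 was near Fadu. Among the other genes present in Hth83 alone of the 3 lines was ZFP42, a marker of pluripotent cells. It had 42, 38.3 and 38.6 CPM in Hth83, against 0, 0 and 0.0664 CPM in Cal27 and 0 CPM in all 3 Fadu libraries. Untreated A375 averaged 22.6 CPM of it.

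Neighbours on the X chromosome were at or near 0 together in Hth83. ARMCX3, an armadillo-repeat protein of mitochondria, had 0, 0.0274 and 0 CPM in Hth83, against 49.5, 48.6 and 47.3 CPM in Cal27 and 24.5, 24.3 and 22.6 CPM in Fadu. ARMCX1, ARMCX4 and ARMCX6 were at 0 counts in Hth83, against 1.77, 2.95 and 4.96 CPM on average in Cal27 and 2.69, 1.13 and 10.4 CPM in Fadu. ARMCX5, of the same family and region, averaged 12.6 ± 0.809 CPM in Hth83, 11.8 ± 0.994 CPM in Cal27 and 9.85 ± 0.843 CPM in Fadu (SD, n = 3 each).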
